A study of Arabidopsis thaliana with 8 samples.

Results

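The comparison described here set the first array of each genotype against its second array, across dark-grown Arabidopsis thaliana seedlings that lacked phytochrome A, phytochrome B, both or neither. Members were chosen by array title alone. The first arrays were those of phyA (title without a number), phyB, phyAphyB and WT, and the second arrays were the 4 whose titles carry the number 2. All 8 arrays of the series therefore entered, as 4 pairs of 1 genotype each. The labels give neither what the numbers stand for nor whether 2 arrays of 1 genotype represent separate sowings, cultures or extractions. The p-values therefore reflect the scatter among these 8 arrays alone, and that scatter may be technical.

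The genotypes were phyA-211, phyB-9, the phyA-211 phyB-9 double mutant and wild type, all in the Columbia ecotype and with 2 arrays each. Every group shared the same growth: seeds on 0.8% agar were chilled for 5 days at 6 degrees C, moved to 22 degrees C, lit with white light for 1 h and left in full darkness for 3 days, when total RNA was extracted. The Affymetrix ATH1 array measures each transcript with a probe set, a group of short probes near its 3' end, and 22746 probe sets remained after 64 control probe sets were set aside. No probe set is named PHYA or PHYB in the annotation used, and the labelled genotypes went unchecked at those genes. The series asks what phytochromes do in darkness, and the comparison of first with second arrays asks which seedling processes differed between 2 arrays of the same genotype.

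A seedling that grows in darkness elongates its hypocotyl, keeps its cotyledons closed and lives on stored oil and protein. Its plastids are etioplasts, which hold the chlorophyll precursor protochlorophyllide and few photosynthetic complexes. Plastids and mitochondria carry small genomes of their own, and most subunits of their complexes are encoded in the nucleus, so organelle activity depends on both sets of genes. Plastid genes are transcribed mostly in long operons that are then cut and trimmed, and the genes of an operon are often measured together.

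The quality of the arrays was checked first. Controls for RNA integrity compare probe sets at the 3' and 5' ends of 1 transcript. The GAPDH 3'/5' ratio was 1.31, 1.45, 2.31 and 16.7 in the phyA, phyB, phyAphyB and WT first arrays, against 1.57, 7.87, 1.96 and 2.19 in the second arrays of the same genotypes. WT first and phyB second thus stood apart, and 1 array of that kind lay in each set. The actin ratio was 46.7 in WT first and 3.64 to 10.8 in the other arrays. Median intensity was 605.5 to 753 in the first arrays and 804 to 898 in the second, with no overlap, although the trimmed mean was scaled to about 2500.2 to 2500.3 on every array. Of the markers for other tissues, 3 of 5 root and root hair genes passed the filter on low values and none of these was called: PYK10, a root and hypocotyl beta-glucosidase, had intensities of 68874 to 111995 in the first arrays and 66582 to 120174 in the second. None of the 3 meristem markers passed the filter.

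Most arrays resembled others of their set more than the other array of their genotype, with phyB second as the exception. Over the 13648 probe sets tested, Pearson's r of log2(intensity + 39) was 0.884 to 0.976 for the 12 pairs of arrays within a set (median 0.940) and 0.900 to 0.925 for the 4 pairs of a genotype (median 0.913). For the 12 pairs that shared neither it was 0.837 to 0.929 (median 0.913). Without WT first and phyB second, the 6 pairs left within a set reached 0.954 to 0.976, above the 0.908 to 0.926 of the 7 pairs left that shared neither. The phyB second array correlated on average at 0.894 with its own set and at 0.917 with phyB first. The WT first array correlated on average at 0.907 with its own set and at 0.900 with WT second, but at 0.892 with phyA first. These values describe the arrays and carry no test, because the same probe sets enter every pair. Of the sum of squares, genotype took 38.4% over 3 degrees of freedom (12.8% for each), array set took 32.7% with 1, and 28.9% over 3 was left (9.65% for each).

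**Figure D1:**
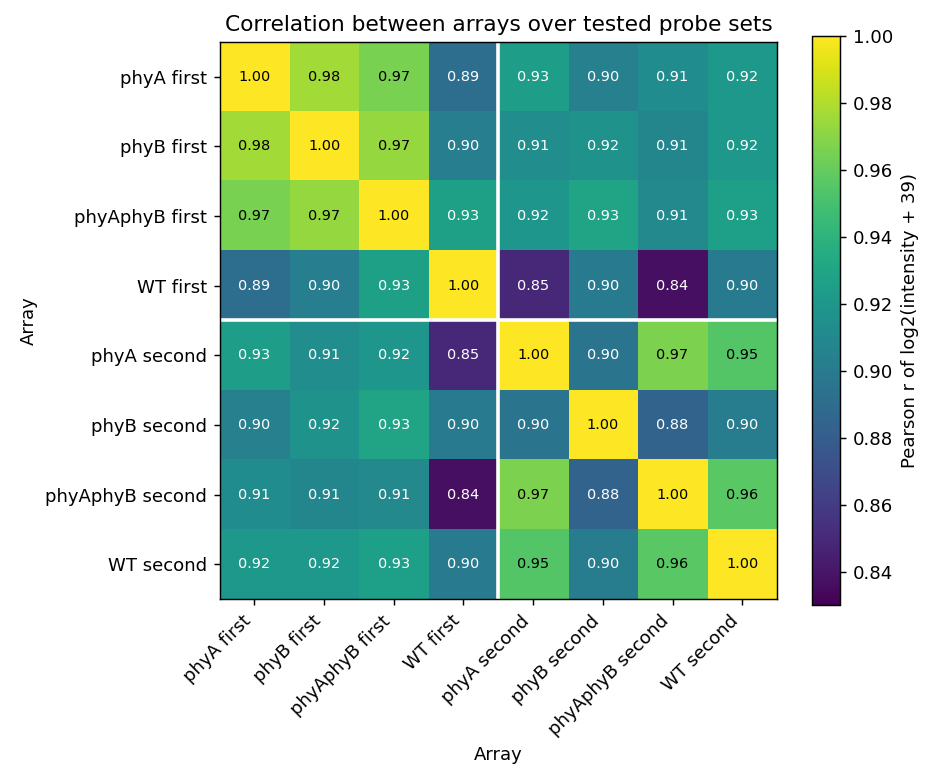
Pearson correlation of log2(intensity + 39) over 13648 probe sets for every pair of the 8 arrays, first arrays above and left of second arrays. The 3 mutant first arrays form a block at 0.97 to 0.98 and the phyA, phyAphyB and WT second arrays another at 0.95 to 0.97, while WT first and phyB second stand apart from both.

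The difference between sets was tested as first minus second, with genotype in the model, so that a positive value means higher in the first arrays. Of 13648 probe sets, 117 were called higher in the first arrays (0.857%) and 864 were called lower (6.33%), 981 in all (7.19%), at a limma adjusted p under 0.05. Of those called, 116 of the 117 and 854 of the 864 had that direction in 4 of 4 pairs, which a call from 4 pairs itself favours. Over all tested probe sets, 1568 were higher in first in 4 of 4 pairs (11.5%) and 2798 lower (20.5%). The first arrays lay wholly above the second for 646 probe sets (4.73%) and wholly below for 1420 (10.4%). The split depended on scaling. When each array was centred on its median, which moved the median difference of all probe sets from -0.08 to 0.24, 884 were called higher (6.48%) and 410 lower (3.0%). With quantile normalization 71 were called higher (0.52%) and 318 lower (2.33%), and the median difference was 0.05. The call also rested on certain pairs: leaving out the phyA pair or the phyAphyB pair left 0 calls (2037 and 2062 probe sets had an unadjusted p under 0.05 in limma), leaving out the WT pair left 749, and leaving out the phyB pair gave 2879. Without both the WT and phyB pairs, which removes both arrays with high GAPDH ratios, 1119 probe sets were called higher (8.2%) and 2209 lower (16.2%), from 2 pairs only. That fit had 1 residual degree of freedom and 307 from the prior, against 3 and 7.26 in the main fit. Each variance thus came almost wholly from the trend over all probe sets, and the count is not comparable with 981.

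The 4 pairs did not differ in one common way. Across the tested probe sets, first minus second in the phyAphyB pair correlated at 0.64 with that in the WT pair and at 0.60 with that in the phyA pair. The phyA pair correlated at 0.41 with the phyB pair and at 0.42 with the WT pair. The phyB pair correlated at 0.15 with the phyAphyB pair and at -0.06 with the WT pair. These correlations are across 13648 probe sets that share arrays, so they are descriptions without a p.

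Genes encoded in the plastid genome were lower in the first arrays. All 69 with a probe set of their own were tested, 18 were called lower and 0 higher, against 5.98% called lower and 0.958% called higher among the 7309 genes with 1 probe set each. The median difference was -0.78, against -0.05 over all genes, and 59 of 69 were negative. It was -0.47 with median centring, which moves all genes alike, and -0.68 with quantile normalization. Relative to all genes these medians were -0.73 and -0.78, and 10 and 12 genes were called. By pair, the median was -0.95 in phyA, -1.49 in phyB, -0.07 in phyAphyB and -0.32 in WT. In 36 of the 69 genes the phyA and phyB second arrays both lay above the other 6 arrays. The same count was not made over all genes, so it has no background to be set against. Without the phyB pair the median was -0.44, and without the WT and phyB pairs it was -0.49.

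The plastid's ribosomal proteins, which build the ribosome that translates the plastid's own messages, had the lowest median of its functional groups. All 15 measured genes were negative, 7 were called lower and 0 higher, and their median was -1.14. The pair medians were -1.31 in phyA, -1.51 in phyB, -0.24 in phyAphyB and -0.52 in WT. Of the 15 genes, 10 were lower in first in 4 of 4 pairs, and 4 were higher in first in the phyAphyB pair. For rps3, a small-subunit protein, intensities were 4295, 4699, 5147 and 4371 in the phyA, phyB, phyAphyB and WT first arrays, against 26455, 14725, 19195 and 12676 in the second arrays. The sets did not overlap, and the log2 difference was -1.92 (SE 0.23, limma adjusted p = 0.0055). For rpl22, a large-subunit protein, they were 2728, 2612, 3692 and 3388 in the first arrays, against 11234, 6506, 7375 and 7040 in the second arrays (log2 -1.34, SE 0.23, limma adjusted p = 0.0132). The genes rps3, rpl22, rpl16 and rpl36, all called lower, lie in 1 plastid operon of ribosomal protein genes. Of that group, rpl16 differed by -1.14 and rpl36 by -1.57 on the log2 scale. The small-subunit gene rps2 was at 1886, 1703, 3442 and 672 in the first arrays and at 8004, 6694, 4064 and 3329 in the second arrays (log2 -1.62, SE 0.32, limma adjusted p = 0.0191). Every pair of rps2 was lower in first, but the sets overlapped, since phyAphyB first exceeded WT second. The pair rpl33 and rps18, transcribed together, differed by -1.42 and -1.16 and were called.

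Of the plastid-encoded photosystem genes, 6 of 20 were called lower and 0 higher, with a median of -0.83 (-0.49 without the phyB pair). Those called were psbE, psbF, psbH, psbJ, psbK and psbL, all of which encode small subunits of photosystem II, the complex that splits water. Of these, psbE, psbF, psbL and psbJ form 1 operon, and psbE and psbF encode the subunits of cytochrome b559. For psbF, intensities were 14647, 12959, 11325 and 5712 in the first arrays, against 30206, 36397, 36661 and 14338 in the second arrays. The phyA first array exceeded WT second slightly, so the sets overlapped although every pair was lower in first (log2 -1.39, SE 0.20, limma adjusted p = 0.00828). For psbL they were 3493, 3415, 3904 and 1758 in the first arrays, against 11885, 9792, 11804 and 3532 in the second arrays (log2 -1.46, SE 0.21, limma adjusted p = 0.00774). Here too WT was the lowest of its set on both sides, and phyAphyB first exceeded WT second. The gene psbK differed by -1.37 and psbJ by -1.21. None of the larger photosystem genes psaA, psaB, psbA, psbB, psbC and psbD was called, and their differences were mixed: -1.35, -0.86 and -0.96 on the log2 scale for psaA, psaB and psbB, and -0.24 for psbD. The gene psbC, a core antenna protein, was at 16003, 9185, 4228 and 1520 in the first arrays and at 6310, 5761, 3406 and 2606 in the second arrays (log2 0.39). The gene psbA, for the D1 reaction-centre protein, was at 1289 to 1998 in the first arrays and 639 to 3371 in the second (log2 0.21).

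Both main subunits of the plastid ATP synthase, the rotary enzyme that makes ATP from a proton gradient, were called lower. For atpB, the catalytic subunit, intensities were 19999, 22672, 21541 and 3655 in the first arrays, against 52813, 44723, 53024 and 34535 in the second arrays (log2 -1.73, SE 0.33, limma adjusted p = 0.0186). The sets were apart, and WT first was lowest by a wide margin. For atpA they were 3191, 3568, 4841 and 1893 in the first arrays, against 12903, 21309, 7471 and 6405 in the second arrays (log2 -1.73, SE 0.29, limma adjusted p = 0.0122). All 6 measured ATP synthase genes were negative, with a median of -0.88 (-0.59 without the phyB pair). Of 10 genes for the plastid NDH complex, which returns electrons to the plastoquinone pool, 2 were called lower and the median was -0.58. That median rested on the phyB pair: it was -0.10 without that pair, and the pair medians were -0.80 in phyA, -2.01 in phyB, -0.11 in phyAphyB and 0.21 in WT. For ndhA, intensities were 2058, 2384, 4486 and 1297 in the first arrays, against 7021, 6843, 5671 and 3479 in the second arrays (log2 -1.25, SE 0.26, limma adjusted p = 0.0218). The sets of ndhA overlapped in 1 place, phyAphyB first above WT second, and the other called NDH gene was ndhI (log2 -1.10). None of the 6 cytochrome b6f genes or of the 4 genes of the plastid-encoded RNA polymerase was called by limma, with medians of -0.40 and -0.46 and 2 genes in each at an unadjusted p under 0.05. Without the phyB pair these medians were -0.14 and -0.24, and in the phyAphyB pair they were 0.69 and 0.39.

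Not every plastid gene followed. The gene rbcL, for the large subunit of the CO2-fixing enzyme Rubisco, was at 2461, 1855, 2211 and 1295 in the first arrays and at 2587, 1779, 1473 and 1357 in the second arrays, with overlapping sets (log2 0.12, SE 0.22, not called). The most positive was petL, a small cytochrome b6f subunit, at 10711 to 16890 in the first arrays and 4784 to 14090 in the second (log2 0.89, SE 0.32, limma adjusted p = 0.112). The ndhF gene shows how far pairs could diverge: it was at 582, 415, 1031 and 681 in the first arrays, against 7009, 6378, 1116 and 695 in the second arrays. The difference lay in the phyA and phyB pairs, and the gene was not called (log2 -1.87, SE 0.60, limma adjusted p = 0.0858). The remaining called plastid gene was ycf4, a photosystem I assembly factor (log2 -0.87).

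**Figure D2:**
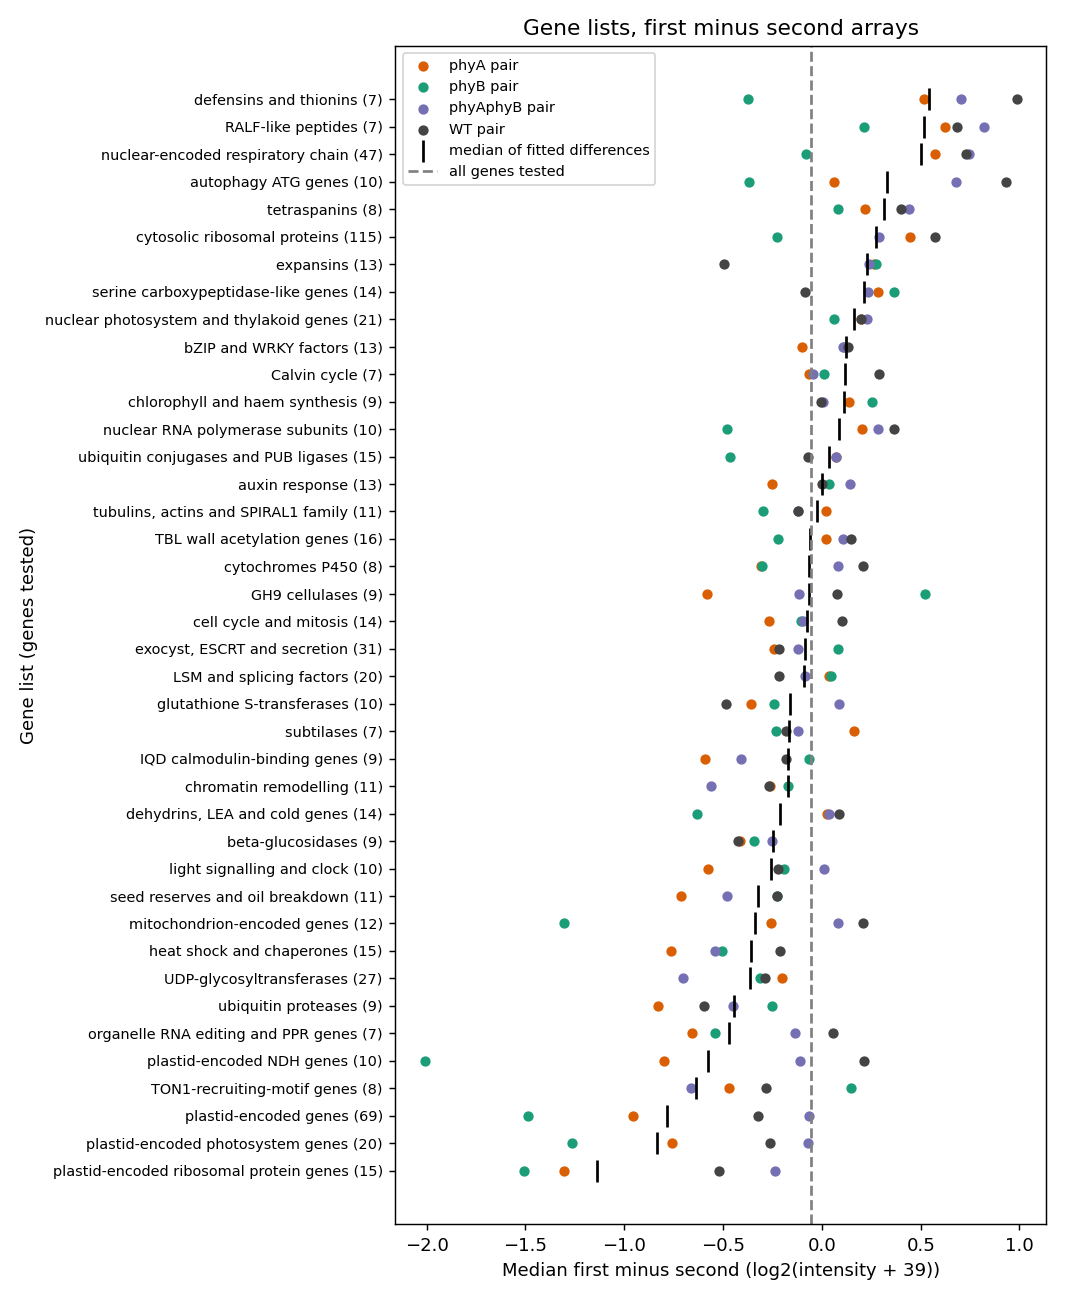
Median first minus second difference on the log2(intensity + 39) scale for each gene list with at least 7 tested genes; points are the 4 pairs, the upright bar is the median of the fitted differences and the dashed line the median over all genes. The plastid-encoded ribosomal protein and photosystem genes lie lowest, nuclear genes of the respiratory chain and small peptide families highest, and the phyB pair often lies apart from the other 3.

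The other organelle genome did not show calls. Of 12 tested mitochondrion-encoded genes, which specify respiratory chain subunits and cytochrome c maturation factors, 0 were called in limma (1 had an unadjusted p under 0.05), and the median was -0.34. The phyB pair had a median of -1.31, with all 12 genes lower in first, while the medians of the other pairs were -0.26 in phyA, 0.08 in phyAphyB and 0.21 in WT. For cox1, a core subunit of cytochrome c oxidase, intensities were 3951, 3327, 1425 and 2872 in the first arrays and 3571, 4545, 3523 and 1734 in the second arrays, with overlapping sets.

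Nuclear genes for the mitochondrial respiratory chain had the opposite sign to plastid genes. Of 47 tested, 5 were called higher and 1 lower in the first arrays, against 0.958% and 5.98% over all genes. Of the 47, 42 were positive, against 3309 of 7309 over all genes, and the median was 0.50. The pair medians were 0.57 in phyA, -0.08 in phyB, 0.75 in phyAphyB and 0.73 in WT, so the phyB pair did not share the difference. The median was 0.82 with median centring, which moves all genes alike, and 0.41 with quantile normalization. Relative to all genes it was 0.56 as deposited and with median centring, and 0.31 with quantile normalization. In the last setting 2 genes were called. For AT2G40765, a small subunit of complex III, intensities were 20090, 24304, 23403 and 27581 in the first arrays, against 6345, 22130, 6470 and 11174 in the second arrays. Of the second arrays, phyB alone exceeded a first array (log2 1.24, SE 0.28, limma adjusted p = 0.0295). For AT4G32470, also of complex III, they were 39489, 44234, 39038 and 52740 in the first arrays, against 16899, 28710, 20658 and 24772 in the second arrays, with no overlap (log2 0.96, SE 0.20, limma adjusted p = 0.0234). AT5G57815, a cytochrome c oxidase subunit, was at 6613 to 8656 in the first arrays and 3120 to 5569 in the second (log2 0.87, SE 0.21, limma adjusted p = 0.0376). The exception was SDH1-1, the flavoprotein of succinate dehydrogenase and whose gene spans 4090 bp, at 1568, 1856, 3431 and 2328 in the first arrays, against 4938, 3382, 5699 and 5837 in the second arrays (log2 -1.13, SE 0.22, limma adjusted p = 0.0195), where phyAphyB first slightly exceeded phyB second. The median gene span of the list was 1643 bp, against 2273 bp over all genes, and the relation of span to the difference is given further on.

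Cytosolic ribosomal protein genes, which set the cell's capacity for protein synthesis, had a positive median without more calls than other genes. Of 115 tested, 1 was called higher and 2 lower, against 0.958% and 5.98% over all genes, so the calls do not set the list apart. Of the 115, 90 were positive and 25 negative, and the median was 0.27. In the phyB pair 83 of 115 were lower in first, against 23 in phyA, 28 in phyAphyB and 20 in WT. With quantile normalization the list's median was 0.20, only 0.10 above that of all genes. AT5G61170, of the S19 family, was at 29170, 30765, 25843 and 25270 in the first arrays, against 14653, 21177, 15374 and 14875 in the second arrays (log2 0.76, SE 0.19, limma adjusted p = 0.0439). The called genes of opposite sign were AT4G02230, of the L19 family, with 3726 to 4046 in the first arrays and 7414 to 11278 in the second (log2 -1.12, SE 0.20, limma adjusted p = 0.0152), and AT3G04920, of the S24 family (log2 -1.04). Members of this list are near-identical gene copies in part, and probe sets may not tell such copies apart.

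The largest called differences were in nuclear genes that were lower in the first arrays. The 14 largest among non-overlapping probe sets that name 1 gene ran from -2.71 to -2.11 on the log2 scale. TPLATE, a subunit of the adaptor complex that starts endocytosis at the plasma membrane and cell plate, had intensities of 523, 550, 399 and 365 in the phyA, phyB, phyAphyB and WT first arrays, against 1928, 1881, 2195 and 2449 in the second arrays. Its sets were far apart in every genotype (log2 -2.12, SE 0.25, limma adjusted p = 0.0055). AT3G05900 was at 503, 770, 1127 and 1623 in the first arrays, against 5711, 3977, 6407 and 7712 in the second arrays (log2 -2.60, SE 0.25, limma adjusted p = 0.00509). AT5G17910, which had the most negative value, was at 68, 264, 380 and 101 in the first arrays, against 1695, 529, 2051 and 1671 in the second arrays (log2 -2.71, SE 0.46, limma adjusted p = 0.0129). In the first arrays these intensities approach the pseudocount of 39, which shrinks the difference, and phyB second was low for its set. AT1G71080 was at 98, 95, 655 and 97 in the first arrays, against 1345, 1004, 1436 and 1313 in the second arrays (log2 -2.67, SE 0.39, limma adjusted p = 0.00838). Here phyAphyB was far above the other first arrays, which were almost level.

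The other 10 of these genes were AT1G64330, AT1G61100, AT1G18660, AT5G24890, AT2G20280, AT2G01100, AT5G19900, AT2G07739, AT1G27210 and AT1G12120. AT5G24890 had intensities of 897, 626, 892 and 597 in the first arrays, against 4941, 2303, 4991 and 4745 in the second arrays (log2 -2.39, SE 0.24, limma adjusted p = 0.00509). AT1G27210 was at 376 to 1003 in the first arrays and 2020 to 4003 in the second (log2 -2.14, SE 0.22, limma adjusted p = 0.00509). That every first array was dimmer than any second array was a condition for naming these genes. The probe set of AT2G07739 is of a type that matches more than 1 transcript, so its source is uncertain; it was at 281, 583, 330 and 696 in the first arrays, against 3280, 6406, 877 and 1002 in the second arrays (log2 -2.14, SE 0.45, limma adjusted p = 0.024).

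Differences towards the first arrays were smaller. The 14 largest by the same rule ran from 1.01 to 1.17 on the log2 scale, and in 12 of the 14 the phyB pair differed least. AT1G70270 had intensities of 3996, 4063, 7227 and 8281 in the first arrays, against 1932, 3580, 1691 and 3116 in the second arrays (log2 1.17, SE 0.29, limma adjusted p = 0.037). The phyB pair hardly differed there. AT4G27652 was at 2449, 3330, 2600 and 3545 in the first arrays, against 915, 1923, 1057 and 1578 in the second arrays (log2 1.14, SE 0.21, limma adjusted p = 0.0163). ATOEP16-2, a member of the channel family of the outer plastid envelope, was at 3907, 5390, 2284 and 1930 in the first arrays, against 1809, 1665, 1027 and 1253 in the second arrays (log2 1.12, SE 0.23, limma adjusted p = 0.0218). In contrast to most of this group its phyB pair differed most. AT1G52220, a CURT1 protein that bends thylakoid membranes, was at 17597, 17969, 16291 and 17907 in the first arrays, against 7584, 11809, 6907 and 8607 in the second arrays (log2 1.03, SE 0.20, limma adjusted p = 0.0195). Its first arrays were almost level, and its second arrays varied. The remaining 10 were AT2G41950, AT4G12980, AT1G68680, AT5G47610 (a RING-H2 protein), AT1G70350, AT4G30010, AT5G55620, AT5G21020, AT5G15320 and AT5G01075.

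**Figure D3:**
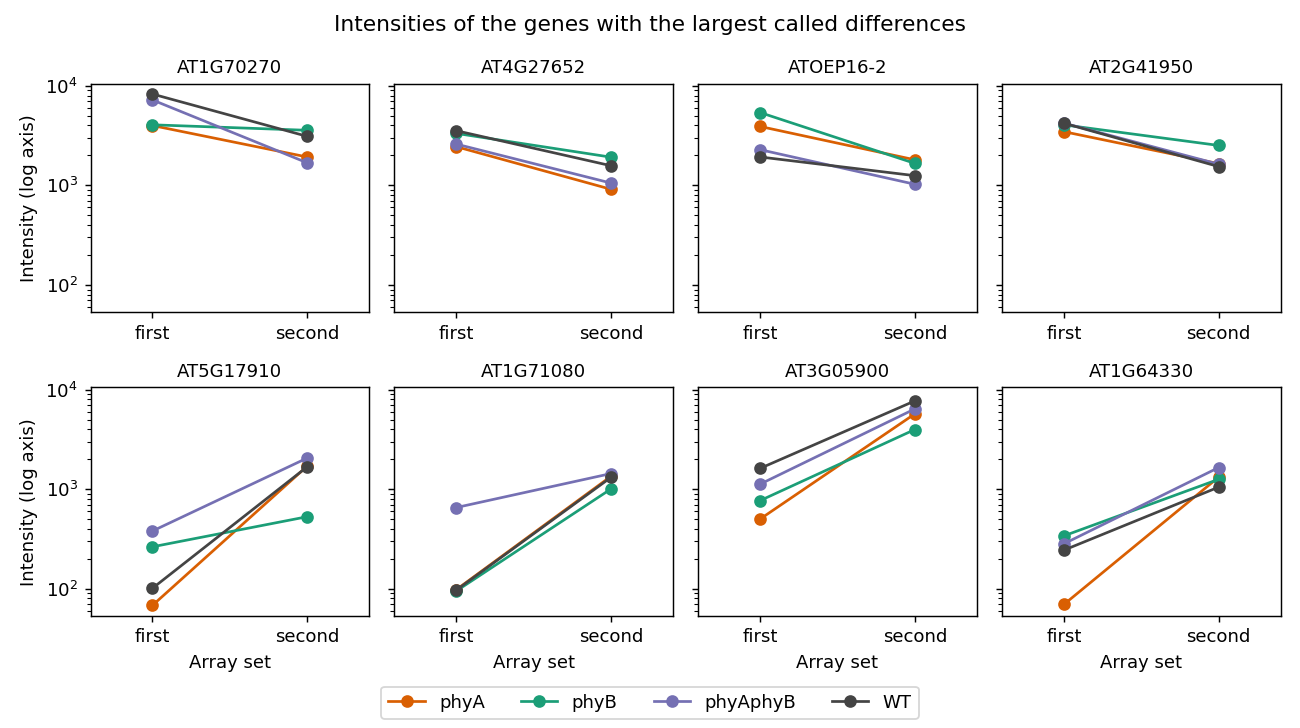
Intensity (log axis) in the first and second array of each genotype for the 4 genes with the largest called difference in each direction; lines join the arrays of a genotype. Lines descend from first to second in the upper row, by least in phyB for AT1G70270, and ascend in the lower row. A shared direction in all 4 pairs was a condition for naming these genes.

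Probe sets without a gene name in the annotation made up 440 of the 981 called, and those naming exactly 1 gene 512. Of the unnamed ones, 261351_at had the smallest p among those higher in the first arrays, with 5959, 6436, 6872 and 6705 in the first arrays, against 1374, 2133, 2258 and 3766 in the second arrays (log2 1.52, SE 0.24, limma adjusted p = 0.011). Among those lower, 257295_at was at 394, 120, 403 and 649 in the first arrays, against 1803, 1197, 3030 and 3228 in the second arrays (log2 -2.52, SE 0.25, limma adjusted p = 0.00509). The other 4 named by this rule were 262970_at and 257897_at, higher by 1.12 and 1.05, and 261314_at and 259393_at, with differences of -2.05 and -2.03.

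Chromatin remodelling genes were mostly lower in the first arrays, with 2 calls, while lists of the transcription machinery were split or positive. Of 11 chromatin remodelling genes, 9 were negative and 2 were called lower, against 4000 of 7309 and 5.98% over all genes. Their median was -0.17, or -0.12 relative to all genes. The median itself was 0.14 under median centring, which moves all genes alike. With quantile normalization it was 0.06, or -0.04 relative to all genes. Under each of these scalings 1 gene of the list was called. Nuclear RNA polymerase subunits had 8 positive and 2 negative (median 0.09), Mediator subunits 2 and 2, and bZIP and WRKY factors 7 and 6. INO80, the ATPase of a nucleosome remodelling complex, was at 619, 264, 695 and 507 in the first arrays, against 2313, 1654, 1647 and 1753 in the second arrays (log2 -1.81, SE 0.26, limma adjusted p = 0.00835). CHR17, an ISWI-type remodeller, was at 529 to 791 in the first arrays and 832 to 1925 in the second (log2 -1.19, SE 0.29, limma adjusted p = 0.0363). HON4, a linker-histone-like DNA-binding protein, was at 984, 726, 1051 and 1055 in the first arrays, against 4418, 1973, 3779 and 4216 in the second arrays (log2 -1.82, SE 0.22, limma adjusted p = 0.0055). It was the only one of 6 tested histone-list genes called. MED19A, a subunit of the Mediator complex that links transcription factors to RNA polymerase, was at 181 to 346 in the first arrays and 639 to 1044 in the second (log2 -1.70, SE 0.28, limma adjusted p = 0.012). Of 14 cell cycle and mitosis genes, 2 were called lower, TPLATE and the WD-repeat protein PCN (log2 -1.38).

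Genes for the cytoskeleton and for membrane traffic gave single calls, against 5.98% called lower and 0.958% called higher over all genes. Of 5 NET genes, whose products bind actin at membranes, 1 was called lower and the median was -0.71. NET1D was at 261, 377, 248 and 984 in the first arrays, against 1410, 837, 1497 and 1512 in the second arrays, and WT first overlapped phyB second (log2 -1.59, SE 0.34, limma adjusted p = 0.0246). The TRM genes, which recruit proteins to cortical microtubules, had a median of -0.64, with 0 of 8 called in limma and 5 at an unadjusted p under 0.05. SPR1, a microtubule-associated protein needed for straight growth, went the other way, at 42790, 46712, 43672 and 66954 in the first arrays, against 20153, 41768, 19513 and 30550 in the second arrays (log2 0.88, SE 0.23, limma adjusted p = 0.0471). Its phyB pair hardly differed. SEC15B, of the exocyst that tethers secretory vesicles, was at 994 to 1368 in the first arrays and 1544 to 3182 in the second (log2 -1.11, SE 0.23, limma adjusted p = 0.0239), the only call among 31 genes of secretion. The calmodulin-binding gene iqd32, the only call among 9 IQD genes, was at 487 to 957 in the first arrays and 1358 to 2711 in the second (log2 -1.60, SE 0.24, limma adjusted p = 0.00958).

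Light signalling, pigment synthesis and cell expansion, the processes by which a dark-grown seedling is usually described, gave 2 calls. Over all genes, 5.98% were called lower and 0.958% higher. Of 10 light signalling and clock genes, MYC3, a bHLH factor of jasmonate responses, was called lower, at 428, 299, 536 and 377 in the first arrays, against 1355, 885, 1163 and 1415 in the second arrays (log2 -1.47, SE 0.25, limma adjusted p = 0.0133). The clock gene GI was at 1416 to 1773 in the first arrays and 1753 to 3127 in the second (log2 -0.52, not called). Of 9 genes of chlorophyll and haem synthesis, HEMB1, which makes porphobilinogen, was called higher, at 15421, 13756, 12635 and 10429 in the first arrays, against 8627, 5752, 7456 and 8085 in the second arrays (log2 0.80, SE 0.21, limma adjusted p = 0.0484). PORB, the light-dependent protochlorophyllide oxidoreductase of etioplasts, was at 50697 to 63901 in the first arrays and 34265 to 50586 in the second, without overlap, but was not called (log2 0.44, SE 0.21, limma adjusted p = 0.217). Of 21 nuclear photosystem and thylakoid genes, AT1G52220 was the only one called, and the list's median was 0.16, opposite in sign to that of the plastid-encoded photosystem genes. None of 13 expansins, which loosen cell walls during growth, was called in limma (3 had an unadjusted p under 0.05), with a median of 0.23. Within them EXPA4 was at 10155, 5884, 3383 and 520 in the first arrays and at 8437, 7513, 6676 and 4877 in the second arrays, where WT first alone was far below (log2 -1.05, SE 0.44, limma adjusted p = 0.169).

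Seed reserve genes and ubiquitin proteases were more often lower than higher in the first arrays, which did not hold for the other lists of protein turnover. Over all 7309 genes, 4000 were negative, 5.98% were called lower and 0.958% higher. Of 11 seed reserve and oil breakdown genes, 10 were negative and 1 was called, so calls do not set the list apart. The list's median was -0.32, which is -0.27 relative to all genes. With median centring, which moves all genes alike, it was -0.0045, and with quantile normalization -0.29. SDP1, the lipase that opens stored oil for use by the seedling, was at 1712, 1919, 1820 and 1681 in the first arrays, against 4250, 3489, 4044 and 5180 in the second arrays, which did not overlap (log2 -1.22, SE 0.21, limma adjusted p = 0.0137). Of 9 ubiquitin-specific proteases, 8 were negative and 2 were called, UBP25 (log2 -1.35, SE 0.24, limma adjusted p = 0.0156) and UBP20 (log2 -1.02, SE 0.26, limma adjusted p = 0.0452). The median of the proteases was -0.44, or -0.39 relative to all genes. It was -0.13 with median centring and -0.27 with quantile normalization, with 1 gene called under each. Of 15 ubiquitin conjugases and PUB ligases, 8 were positive and 7 negative (median 0.04), and 2 were called lower. The E2 enzyme UBC22 was at 7458 to 9971 in the first arrays and 14094 to 16181 in the second (log2 -0.77, SE 0.20, limma adjusted p = 0.0471). PUB49, a U-box protein, was at 354 to 571 in the first arrays and 1085 to 1312 in the second (log2 -1.28, SE 0.25, limma adjusted p = 0.0185). Autophagy genes had 9 positive and 1 negative and a median of 0.33 with 0 of 10 called in limma and 0 at an unadjusted p under 0.05, and 9 of the 10 were lower in the phyB first array.

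Stress and metabolism lists added a few members. Of 15 heat shock and chaperone genes, 12 were negative and SGT1A, a partner of HSP90, was called, at 418 to 597 in the first arrays and 978 to 1373 in the second (log2 -1.21, SE 0.25, limma adjusted p = 0.0221). Of 27 UDP-glycosyltransferases, which attach sugars to hormones and other small molecules, 21 were negative and 4 were called lower. Over all 7309 genes, 4000 were negative and 5.98% were called lower. The median of the UDP-glycosyltransferases was -0.37, which is -0.31 relative to all genes. Of them, 1 was called with median centring and 0 with quantile normalization. GT72B1 was at 2133, 2207, 2834 and 1053 in the first arrays, against 3828, 3047, 5654 and 3731 in the second arrays (log2 -1.02, SE 0.25, limma adjusted p = 0.0362). UGT73B1 and UGT74D1 differed by -1.17 and -0.87. UGT73B4 rested partly on a value below the pseudocount, 22 in phyB first, beside 273, 481 and 479 in the phyA, phyAphyB and WT first arrays and 594 to 1255 in the second arrays (log2 -1.71, SE 0.45, limma adjusted p = 0.048). BGLU46, a glucosidase of lignin precursors, was at 514 to 1310 in the first arrays and 1712 to 2443 in the second (log2 -1.24, SE 0.25, limma adjusted p = 0.0201). Single calls in other lists were AT3G15670, a late embryogenesis abundant protein (log2 -0.84), BZIP61 (log2 -0.84) and the wall acetylation gene TBL39 (log2 0.80).

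Families of small secreted peptides had positive medians. RALF peptides, which signal through receptor kinases in the cell wall, had 7 of 7 tested genes positive (0.40 to 0.79, median 0.52). In limma 0 were called and 4 had an unadjusted p under 0.05. The nearest to a call was RALFL32, at 24141, 24763, 25201 and 39665 in the first arrays, against 13166, 20460, 14336 and 17041 in the second arrays, without overlap (log2 0.79, SE 0.22, limma adjusted p = 0.0531). Defensins and thionins, which are antimicrobial, had 7 of 7 positive (0.08 to 0.92, median 0.54) and 0 called in limma (2 at an unadjusted p under 0.05), but 6 of the 7 were lower in the phyB first array. CLE41, whose peptide keeps vascular stem cells undifferentiated, was called higher, at 4435, 2625, 2519 and 2707 in the first arrays, against 1855, 1969, 1211 and 1358 in the second arrays (log2 0.91, SE 0.22, limma adjusted p = 0.0351). The median gene spans of the RALF and defensin lists were 889.5 and 810 bp.

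Gene span, the length from the start to the end of a nuclear gene with its introns in the TAIR10.1 annotation, moved with the difference in 3 of the 4 pairs. Among 7210 nuclear genes, the median first minus second was 0.31 for the 452 genes under 1000 bp, 0.09 for 2327 genes of 1000 to under 2000 bp, -0.09 for 2342 genes of 2000 to under 3000 bp and -0.16 for 1184 genes of 3000 to under 4000 bp. It was -0.35 for 473 genes of 4000 to under 5000 bp, -0.42 for 292 genes of 5000 to under 7000 bp and -0.46 for 140 genes of 7000 bp and over. In the longest class the pair medians were -0.73 in phyA, 0.19 in phyB, -0.63 in phyAphyB and -0.54 in WT, and in the shortest they were 0.26, -0.34, 0.61 and 0.64. The phyB pair thus ran opposite to the other 3, and Pearson's r with log2 span across genes was -0.35 in phyA, 0.14 in phyB, -0.43 in phyAphyB and -0.36 in WT.

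The calls followed the same order. Genes called higher in the first arrays (n = 70) had a median span of 1430.5 bp and 80.0% were under 2000 bp. Genes called lower (n = 418) had a median of 3024.5 bp and 15.6% under 2000 bp, and those not called (n = 6722) had 2259 bp and 39.5%. Of the 905 genes of at least 4000 bp, 107 were called lower and 0 higher, against 5.98% lower and 0.958% higher over all genes. The 14 genes with the largest differences towards the first arrays spanned 657 to 2013 bp, and the 14 with the largest towards the second arrays 888 to 5691 bp. Relative to each gene's mean over the 8 arrays, genes of 7000 bp and over had medians of -0.18, -0.19, -0.11 and -0.21 in the phyA, phyB, phyAphyB and WT first arrays, against 0.48, -0.37, 0.47 and 0.29 in the second arrays. The phyB second array thus sat with the first arrays on this measure. In the same genotype order, GAPDH ratios were 1.31, 1.45, 2.31 and 16.7 in the first arrays, against 1.57, 7.87, 1.96 and 2.19 in the second. Actin ratios were 5.61, 3.89, 8.28 and 46.7, against 3.64, 7.5, 7.78 and 10.8. Ubiquitin ratios were 2.09, 2.18, 2.37 and 3.27, against 1.89, 3.15, 1.88 and 2.04. The part of array quality in the relation was not tested. Plastid genes were not among the nuclear genes of this comparison. They had a median length of 555 bp and were lower in the first arrays. Since they are transcribed mostly in long operons, that length may not be the length of their transcripts.

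**Figure D4:**
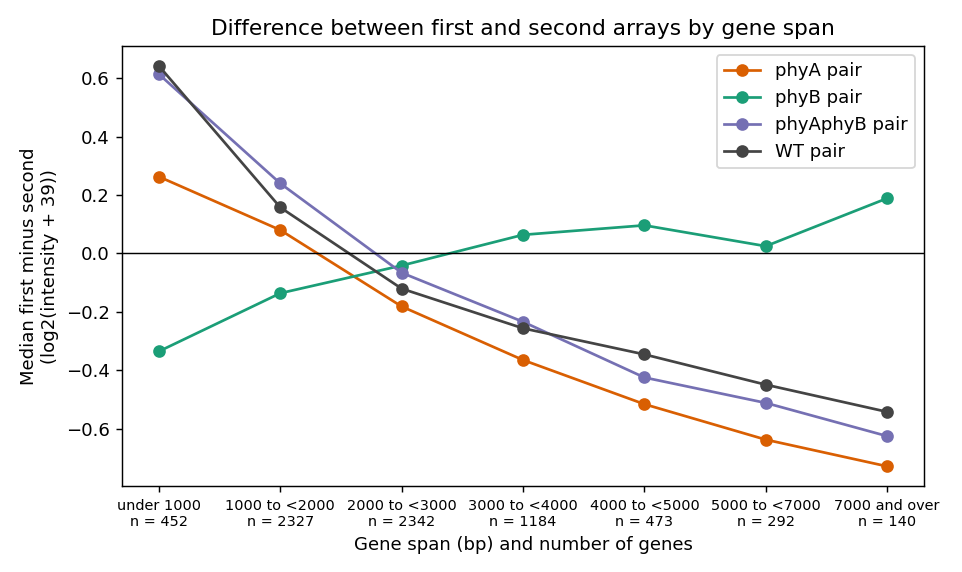
Median first minus second difference on the log2(intensity + 39) scale by gene span class for 7210 nuclear genes, with 1 line for each pair and the number of genes under each class. The phyA, phyAphyB and WT lines descend from 0.26 to 0.64 in the shortest class to -0.54 to -0.73 in the longest, and the phyB line climbs from -0.34 to 0.19.

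Brightness moved with the difference as well. With the tested probe sets cut into 10 equal classes by mean level, the median of the dimmest class was -0.23, with 1 called higher and 91 lower, and that of the brightest was 0.23, with 28 called higher and 13 lower. By pair, the dimmest class had -0.53 in phyA, -0.38 in phyB, -0.06 in phyAphyB and -0.01 in WT. Span and brightness were not the same thing: within the brightest of 3 equal classes of genes the median was 0.41 under 1000 bp and -0.11 at 4000 bp and over, and within the dimmest of them it was 0.20 and -0.52. Respiratory chain, ribosomal protein, RALF and defensin genes are short. Several lists that were lower are of long genes, such as chromatin remodelling (median span 4547 bp), ubiquitin proteases (3871 bp) and NET genes (3818 bp). Other lists went the other way. Ethylene and cytokinin response genes (1716 bp, 6 tested) had a median of -0.74 and UDP-glycosyltransferases (1900 bp) -0.37. Glutathione S-transferases (1298 bp) and dehydrins, LEA and cold genes (1259.5 bp) had -0.16 and -0.21. Serine carboxypeptidase-like genes (3104.5 bp) had 0.22. The part of span, brightness or array quality in the difference of any list was not tested.

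**Figure D5:**
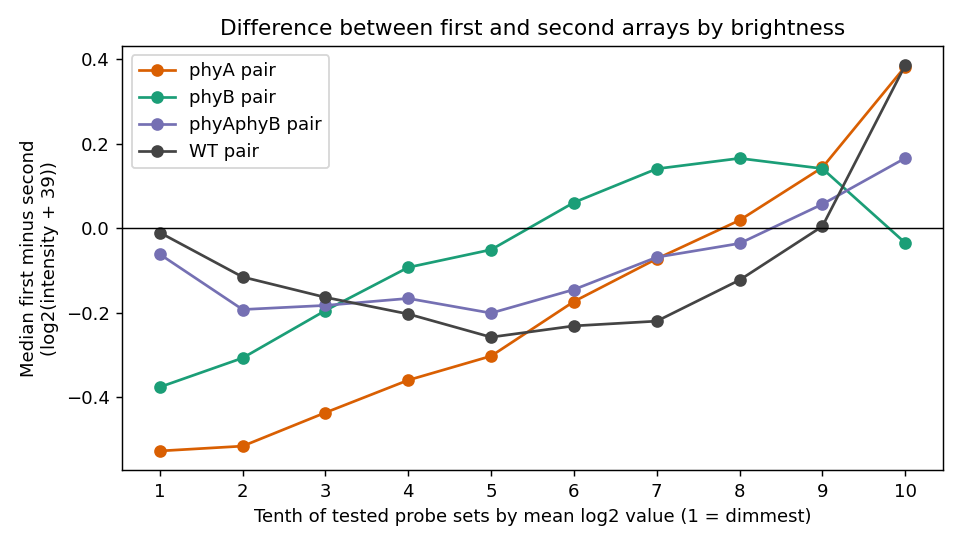
Median first minus second difference on the log2(intensity + 39) scale by class of mean log2 value (10 equal classes of the tested probe sets, 1 the dimmest), with 1 line for each pair. In the brightest class phyA and WT reach 0.38 and 0.39 while phyB is at -0.03, and in the dimmest phyA and phyB are at -0.53 and -0.38.

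Finally, array set was put into the model that asks whether any genotypes differed. With set in the model, 7 of 13648 probe sets were called by limma's F test (0.0513%), against 2 without it (0.0147%), and 955 against 371 had an unadjusted p under 0.05. None of the 7 has a name in the annotation. Those called in both models were 248066_at and 264508_at. The probe set 248066_at was at 5317, 37, 3678 and 12 in the phyA, phyB, phyAphyB and WT first arrays and at 5605, 58, 4282 and 35 in the second arrays, so it was high wherever phyA-211 was present. The probe set 264508_at was at 415, 32862, 28 and 34226 in the first arrays and at 42, 16365, 20 and 33678 in the second arrays, the reverse pattern. Those added were 253767_at, 248125_at, 252957_at, 257809_at and 255500_at. Of these, 253767_at was at 15765, 61093, 49281 and 9325 in the first arrays and at 18668, 52253, 58898 and 9784 in the second arrays, with both genotypes that carry phyB-9 above phyA and WT in both sets (limma adjusted p = 0.0247, and 0.0697 without set).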

How the data were processed

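The authors deposited intensities (linear, whole numbers), and how probes were summarised is not given in the sources at hand. Values were used as deposited. Before log2, a pseudocount of 39, equal to the 10th percentile of the intensities, was added, which understates differences of dim probe sets. Probe sets in the lowest 40% by mean log2 value were left out, keeping 13648. Arrays were grouped by the genotype and number in their titles. limma 3.58.1 (R 4.3.3) fitted genotype and array set (lmFit, eBayes with an intensity trend, two-sided, Benjamini-Hochberg), after being tested on simulated data. Replicate numbers were compared as pairs of 1 genotype, which is a block by genotype. Whether the arrays of a pair or of a set shared a day is not given by the labels. Depth does not apply to arrays, and their number, 4 in each set, limits precision.

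Probe sets were named through GEO's platform annotation: 13513 named 1 gene, 503 several and 8730 none, and 13436 matched the RefSeq table of TAIR10.1. For gene lists the brightest probe set stood for each gene. Members and the 59 lists were chosen with earlier results of these data known. Named were the 14 largest called, non-overlapping differences in each direction, the 3 unnamed probe sets of smallest p in each direction, and up to 4 called members of each list. Other genes were named after their values were seen. Alternatives covered pseudocount, filter, scaling, trend, genotype term, left-out pairs and the GAPDH ratio as covariate.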

Additional observations from a re-analysis of the deposited data

Results flagged for a closer look

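In groups of 4 arrays or 4 pairs, 15 of 124 values tested lay further from the rest of their group than Dixon's critical value allows, where chance flags about 1 group in 20. Some were array measures. The GAPDH 3'/5' ratio of 16.7, the actin ratio of 46.7 and the level of hybridisation spikes at 2.95 times the median array all stood out in WT first. In phyB second the GAPDH ratio of 7.87 and the ubiquitin ratio of 3.15 stood out.

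Among named genes, log2 values of 11.32 for AT2G41950, 9.15 for AT5G17910 and 11.19 for AT5G24890 in phyB second lay nearer to the first arrays than the other second arrays did. AT1G68680 was high in WT first, at 14.03, and AT1G71080 was high in phyAphyB first, at 9.44.

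Among gene lists, the median first minus second difference stood out in the WT pair for expansins, at -0.50, and for vessel markers, at -0.52. It stood out in the phyB pair for dehydrins, LEA and cold genes, at -0.63, in the phyAphyB pair for SWEET sugar transporters, at 0.27, and in the phyA pair for bZIP and WRKY factors, at -0.10.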

How the results depend on the processing

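Against 981 calls, a pseudocount of 1 gave 946, a pseudocount of 200 gave 1053, no filter 669, no intensity trend 925 and median centring 1294. Quantile normalization gave 389 and leaving out 60% of probe sets 449. Leaving out 1 pair gave 0 to 2879. Leaving out the WT and phyB pairs gave 3328, the GAPDH ratio as a covariate 3334, and leaving out WT first and phyB second without genotype in the model, chosen after seeing the data, 4046. The causes were not tested, but leaving out a pair also leaves fewer arrays. The fit without the WT and phyB pairs had 1 residual degree of freedom, so its count is not comparable with 981. In the unpaired fit, without genotype as a replicate block, there were 876 calls, and the genotype test without array set as a block gave 2. The 7 genotype calls became 2 with a pseudocount of 1, 9 with one of 200, 2 with median centring, 4 with quantile normalization, 9 with no filter, 2 with 60% left out, 2 with no trend and 2 to 19 with 1 pair left out. The median difference of -0.08 became 0.235 with median centring, 0.055 with quantile normalization and -0.0086 with 60% left out. Of the 79 named probe sets, 55 had a value with 60% of probe sets left out, 78 with a pseudocount of 1 and all 79 under each other alternative, and none with a value changed direction. All 79 lost their call without the phyA pair or without the phyAphyB pair, 26 with quantile normalization and 15 with median centring. With 4 arrays a set, differences of dim probe sets and of lists that pairs do not share are limited in precision.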
